A study of Homo sapiens with 6 samples.

Results

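Immediate early genes are transcribed within minutes of a growth signal or stress, without new protein synthesis, and many of their mRNAs are short-lived. AU-rich elements in the 3′UTR, built around the word ATTTA, mark many such mRNAs for decay through proteins such as ZFP36, and Ago2 is the protein that carries a miRNA to sites in the 3′UTR that pair with the miRNA's seed. The genes described here are *FOS*, *FOSB*, *JUN*, *JUNB* and *JUND*, whose products pair to form the transcription factor AP-1, the zinc finger transcription factors *EGR1* and *KLF6*, the growth-promoting transcription factor *MYC*, and the early response genes *IER2* and *IER3*. These 10 genes were taken by symbol from the 21863 gene symbols with deposited values, and each was present once and had a value above 0 in all 6 libraries.

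The libraries came from Hep G2, an established line grown from a human liver cancer, which the study describes as lacking *miR-195* and *miR-497*. Cells were transfected with 5 nM of dsRNA mimicking *miR-195* or of dsRNA mimicking *miR-497* with Lipofectamine RNAiMAX and collected at 24 hours, or were not transfected (labelled 0 hours). From each of these 3 conditions, RNA bound to Ago2 was collected with an anti-human Ago2 antibody (Ago2-IP, 10 ng used) and sequenced beside total RNA (3000 ng used), with 1 library each. No library of cells given a control dsRNA was among them, so the mimic, the transfection and the difference in time cannot be told apart in any comparison with non-transfected cells.

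With 1 library per condition there is no spread between replicates and no test, and "higher" and "lower" below describe these libraries. Values are RPKM as deposited by the authors, that is, reads scaled for transcript length and for how many reads were mapped in the library. Whole read numbers were inferred from the steps between RPKM values for 14200 of 15487 genes (91.7%), the 10 genes included. Over all genes they summed to between 26064698 and 36405406 reads in total RNA and between 3275891 and 7084874 in Ago2-IP, where the *miR-497* library was the shallowest. The 95% intervals given here rest on these reads and cover counting error only. Hepatocyte markers were present for 8 of 8 genes in total RNA, at 1.52 to 4.88e+03 RPKM, while each blood, endothelial and fibroblast marker stayed at or under 0.99 RPKM, with *PTPRC*, *CD3E*, *COL1A2* and *DCN* at 0. In such bulk samples, fewer cells with an mRNA and less of it per cell cannot be told apart.

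Both miRNAs carry the same seed, bases 2 to 8, and the mature sequences (RefSeq, GRCh38.p14) are printed with it in capitals to show what a matching site must pair with. Their genes lie on the minus strand of chromosome 17 of that build, at chr17:7017667-7017687 and chr17:7017979-7017999.
miR-195-5p: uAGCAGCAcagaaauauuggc
miR-497-5p: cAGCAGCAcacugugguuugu
The matching site in a 3′UTR is TGCTGCT. On the canonical 3′UTRs of GENCODE 44 on GRCh37, the assembly also called hg19 and used by the authors, it was found in 1 of the 10 genes, *IER2*, against 21.9% of the 18117 genes with such a 3′UTR. Its 3′UTR starts at 13264673 on the plus strand of chromosome 19, and the site lies at 13265320 to 13265326. The window of 30 bases around it lies on the plus strand at chr19:13265309-13265338, with the 7 bases of the site in capitals.
IER2: tcacccccgcgTGCTGCTggttaatgtccc
The shorter word GCTGCT, which also lies inside the 7-base site, was found in 4 of the 10 genes, *FOSB*, *KLF6*, *MYC* and *IER2*, and in 40.7% of all these genes. A word is a description of the sequence and not evidence of binding.

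The AU-rich word was common in these genes, as it was in all genes, but most of the 3′UTRs as a whole were not rich in A and U. At least 1 ATTTA was found in 9 of the 10 genes, against 69.1% of all genes, and 6 of the 10 held at least 3, against 43.0%. *IER2*, the gene with the miRNA site, had none. For *FOS*, *KLF6* and *IER3*, which had 5 or 6 copies, the window of 30 bases with the most ATTTA is printed from the same annotation and build, with each ATTTA in capitals.
FOS, chr14:75748760-75748789, plus strand: ttgtgtttttaATTTATTTAttaagatgga
KLF6, chr10:3820983-3821012, minus strand: gtATTTAcaaatataacacaacaATTTAac
IER3, chr6:30711425-30711454, minus strand: taattaatATTTAtatgtATTTAtgtacgt
*FOS* had 5 copies in 806 bases and was the 1 gene of the 10 with the 9-base word TTATTTATT, which 8.7% of all genes hold and which contains an ATTTA. *IER3* had 6 copies in 737 bases, or 8.14 per kb, a density above that of 97.6% of genes, while *KLF6* had 6 in 3543 bases, or 1.69 per kb. The share of A and U in the 3′UTR was above the all-gene median of 57.6% in 4 of the 10 genes (*FOS*, *EGR1*, *KLF6* and *MYC*) and under it in the other 6, lowest in *JUND* at 38.42% and *IER2* at 41.41%. At least 5 ATTTA were found in 4 of the 10 genes, against 29.9% of all genes. The number per kb was above the all-gene median in 6 of the 10 and under it in *FOSB*, *JUND*, *EGR1* and *IER2*. These counts are not far from the shares of all genes, and most of the 3′UTRs were not AU-rich by base composition. Over the whole transcript, 8 of the 10 genes lay in the 2 upper quintiles of GC content.

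In total RNA of non-transfected cells the levels of the 10 genes spanned from 0.1713 RPKM for *FOSB* to 103.8 for *IER3*. Their order was *IER3*, *MYC*, *KLF6*, *JUND*, *IER2*, *EGR1*, *JUN*, *JUNB*, *FOS* and *FOSB*, and every pair of neighbours in it differed by more than counting error. *IER3*, *MYC*, *KLF6* and *JUND* kept these 4 places in total RNA with both mimics, and *JUNB*, *FOS* and *FOSB* kept the last 3. Between them *IER2*, *EGR1* and *JUN* changed places. With *miR-195*, *JUN* and *IER2* (ratio 1.06, 0.955 to 1.18) did not differ beyond counting error, nor did *EGR1* and *JUNB* with *miR-497* (ratio 1.15, 0.975 to 1.36). In Ago2-IP the reads were too few to order many neighbours: 5 of the 9 neighbouring pairs in non-transfected cells and 6 of 9 with *miR-497* had intervals that include 1, against 2 of 9 with *miR-195*. The sum over the 10 genes was 257.3, 305.2 and 301.7 RPKM in total RNA of non-transfected, *miR-195* and *miR-497* cells, with 75.91, 192.1 and 44.24 RPKM in Ago2-IP in the same order. The sums thus differed more between the Ago2-IP libraries than between the total RNA libraries.

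**Figure D1:**
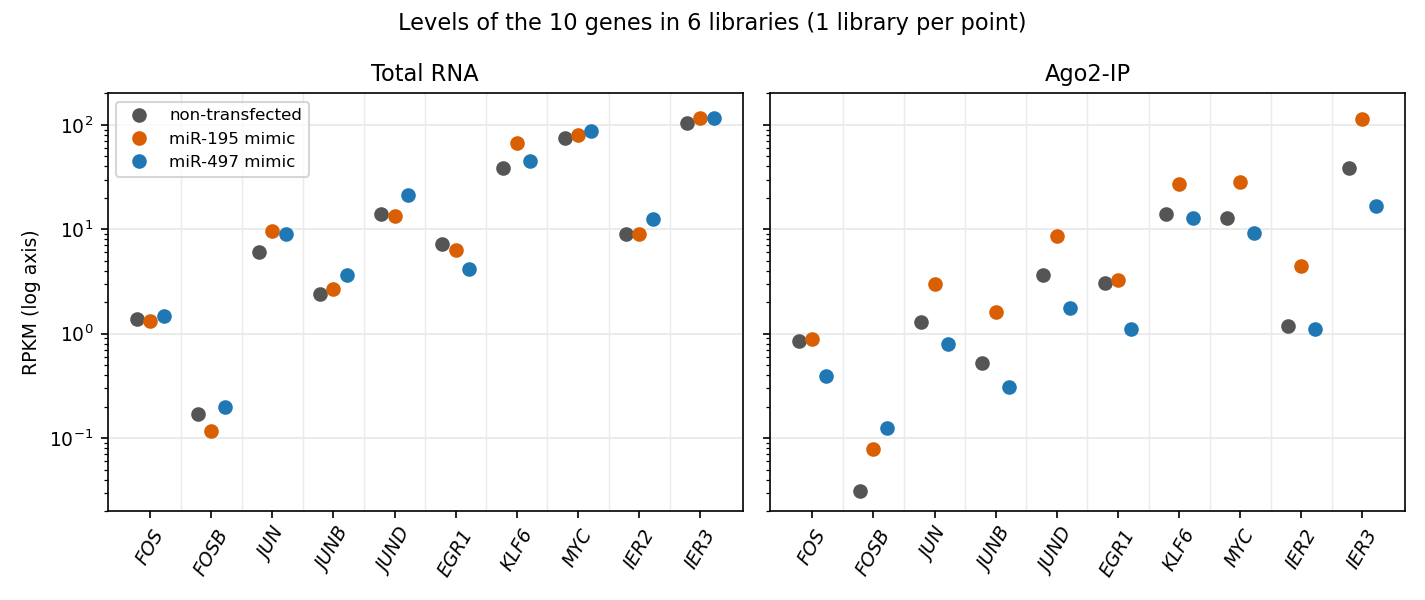
RPKM (log axis) of the 10 genes in total RNA (left) and Ago2-IP (right), 1 library per point, in non-transfected cells and with each mimic. In total RNA the 3 points of a gene lie close together. In Ago2-IP the *miR-195* point is the highest of 3 for every gene but *FOSB*, and the *miR-497* point is the lowest for every gene but *FOSB*.

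The first question was whether the amount of these mRNAs in the cell differed with a mimic. None of the 10 genes was 2-fold higher or 2-fold lower in total RNA with either mimic. For *miR-195*, 5.81% of the 14740 genes with values in both libraries were at least 2-fold higher and 3.2% at least 2-fold lower than in non-transfected cells, and for *miR-497*, 6.67% and 2.11% of 14768 genes. Low genes make up much of these shares. Among genes with at least 1 RPKM in both libraries, as 9 of the 10 were, 0.995% were 2-fold higher and 0.986% 2-fold lower after *miR-195*, against 1.58% and 0.213% after *miR-497*. With *miR-195* the median ratio of the 10 genes was 1.04 (range 0.685 to 1.74), beside 1.01 over all genes. With *miR-497* it was 1.17 (range 0.586 to 1.55), beside 1.06 over all genes. The largest differences were in *KLF6* and *JUN* with *miR-195* and in *JUND*, *JUNB* and *EGR1* with *miR-497*. Both mimics are compared with the same non-transfected library.

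The JUN family differed by member and by mimic. *JUN*, the founding member and a strong activator within AP-1, lies on the minus strand of chromosome 1, where its gene record spans 59242517 to 59249720. It stood at 6.108 RPKM in non-transfected cells, 9.62 after *miR-195* and 9.008 after *miR-497*, ratios of 1.58 (1.41 to 1.76) and 1.47 (1.32 to 1.64). *JUND*, which is expressed in resting cells more than its relatives, lies on the minus strand of chromosome 19 (18390504 to 18392432). It stood at 13.88, 13.38 and 21.52 RPKM in the same order, so it was within counting error of non-transfected cells with *miR-195* (0.964, 0.867 to 1.07) and 1.55 times higher (1.41 to 1.7) with *miR-497*. *JUNB*, a weaker activator that can oppose *JUN*, lies on the plus strand of chromosome 19 (12902300 to 12904129) and stood at 2.382, 2.684 and 3.645 RPKM. Its ratio was 1.13 (0.877 to 1.45) after *miR-195* and 1.53 (1.21 to 1.93) after *miR-497*. The share of *JUN* in the summed RPKM of the family was 27.3% in non-transfected cells, 37.5% after *miR-195* and 26.4% after *miR-497*, so with *miR-195* *JUN* gained on *JUND*, which held 62%, 52.1% and 63%. Compared directly, total RNA with *miR-195* had 0.622 times the *JUND* of total RNA with *miR-497* (0.568 to 0.681), while for *JUN* the ratio was 1.07 (0.975 to 1.17). Of *JUNB*, 14.2% of the transcript overlaps exons of *HOOK2* on the opposite strand, and since the sources used here do not say whether counting used strand, reads of the 2 genes cannot be told apart there.

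The FOS partners were low and their differences were not detectable at this depth. *FOS* (chromosome 14, 75745529 to 75748933, plus strand) stood at 1.386 RPKM in non-transfected cells, 1.311 after *miR-195* and 1.466 after *miR-497*, from 74, 83 and 98 reads. *FOSB* (chromosome 19, 45971253 to 45978437, plus strand) stood at 0.1713, 0.1173 and 0.1967 RPKM, from 16, 13 and 23 reads. All 4 ratios had intervals that include 1, among them 0.685 (0.329 to 1.42) for *FOSB* with *miR-195*. *FOS* and *FOSB* summed to 1.558 RPKM in non-transfected cells against 22.37 for the JUN family, so the JUN family had the larger summed level.

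The zinc finger factors went apart. *EGR1*, which binds GC-rich promoter sites and is among the fastest genes to answer a growth signal, lies on the plus strand of chromosome 5 (137801168 to 137804992). It stood at 7.168 RPKM in non-transfected cells, 6.292 after *miR-195* and 4.201 after *miR-497*. Its ratios were 0.878 (0.781 to 0.986) and 0.586 (0.516 to 0.666). It was the 1 gene of the 10 whose interval lay under the all-gene median in total RNA, as did 26.3% of all genes with inferred reads under *miR-195* and 29.8% under *miR-497*, and 3.2% of genes had a lower ratio with *miR-497*. *KLF6*, a zinc finger factor with growth-suppressing roles in the liver, lies on the minus strand of chromosome 10 (3818188 to 3827473). It stood at 38.32, 66.58 and 45.59 RPKM, ratios of 1.74 (1.68 to 1.8) and 1.19 (1.15 to 1.24). Its ratio with *miR-195* was the highest of the 10 genes and above that of 91.8% of all genes. Compared directly, *miR-195* cells had 1.5 times the *EGR1* (1.32 to 1.7) and 1.46 times the *KLF6* (1.41 to 1.51) of *miR-497* cells in total RNA.

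*MYC* and *IER3*, the most abundant of the 10, stayed near their level in non-transfected cells. *MYC*, which drives cell growth and division as a dimer with MAX, stood at 75.1 RPKM in non-transfected cells, 80.19 after *miR-195* and 86.84 after *miR-497*, ratios of 1.07 (1.03 to 1.11) and 1.16 (1.11 to 1.2). Its RPKM implied a transcript of 2359 bases, against 3721 in the canonical annotation, so its level relative to other genes depends on the shorter length that the authors used. The other 9 genes implied lengths within 0.97 to 1.02 of the canonical ones. *IER3*, a stress-inducible gene linked to cell survival, lies on the minus strand of chromosome 6 (30710976 to 30712325) and stood at 103.8, 116 and 116.8 RPKM, ratios of 1.12 (1.07 to 1.17) and 1.13 (1.08 to 1.18). Antisense transcripts on the opposite strand overlap 35.6% of the *IER3* transcript (*IER3-AS1*) and 5.2% of *MYC* (*CASC11*), and reads of these cannot be told apart either. *IER2*, a growth-signal-induced nuclear protein gene, lies on the plus strand of chromosome 19 (13261225 to 13265725) and stood at 9.011, 9.062 and 12.42 RPKM. The 1 gene with a site for both miRNAs was thus not lower in total RNA with either, at ratios of 1.01 (0.888 to 1.14) and 1.38 (1.23 to 1.55). Genes with the site had median ratios of 0.941 and 0.998, against 1.03 and 1.08 for genes without. For *IER2*, 44.8% of the transcript overlaps an unnamed lncRNA on the opposite strand.

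**Figure D2:**
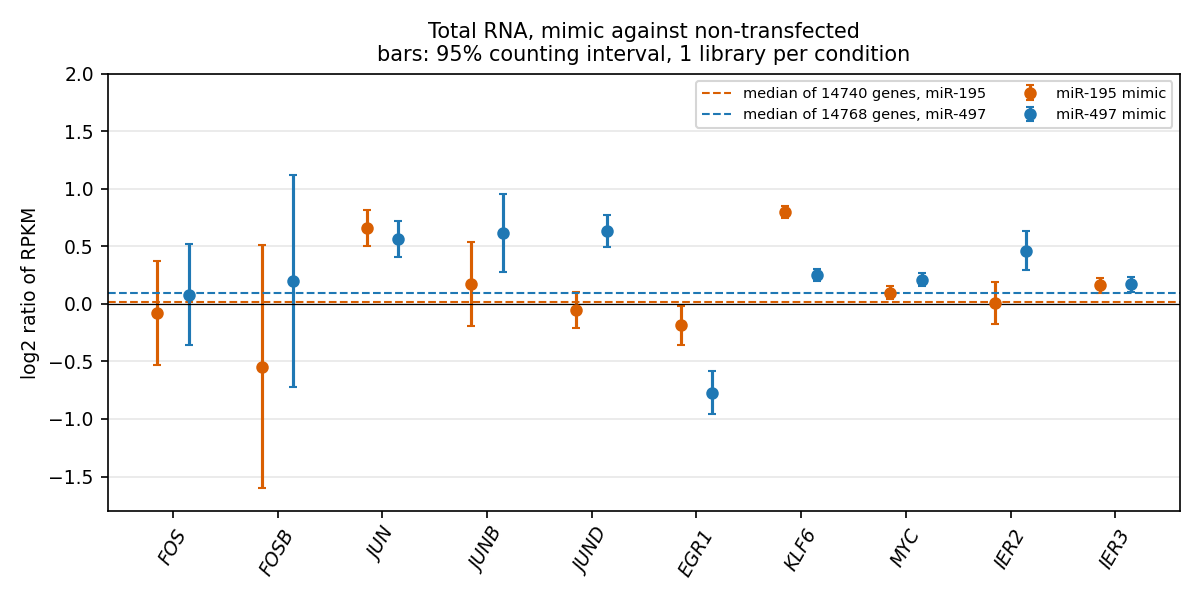
Log2 ratio of total RNA RPKM with each mimic against non-transfected cells, with 95% counting intervals, 1 library per condition, and dashed lines at the median of all genes. All 10 genes lie within 2-fold of non-transfected cells, *KLF6* is highest with *miR-195* (ratio 1.74) and *EGR1* lowest with *miR-497* (ratio 0.586).

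Base composition moved with these ratios across all genes. With *miR-195* the median ratio in total RNA was 0.931 in the lowest quintile of transcript GC content and 1.13 in the highest. With *miR-497* it was 0.852 in the lowest and 1.5 in the highest. *JUNB*, *JUND* and *IER2* lie in the highest quintile, *FOS*, *FOSB*, *JUN*, *EGR1* and *IER3* in the next, *MYC* in the middle one and *KLF6* in the one under it. Against genes of the same quintile of GC content and the same quintile of transcript length, the *miR-497* ratios of *JUNB* and *JUND* were 1.02 (0.804 to 1.28) and 1.03 (0.936 to 1.13) times the median of these genes, and that of *IER2* was 0.915 (0.816 to 1.03). *EGR1* stayed low at 0.476 (0.419 to 0.54) and *JUN* stayed high at 1.2 (1.07 to 1.33) on this scale, and *KLF6* reached 1.29 (1.24 to 1.34). *MYC* (1.11, 1.07 to 1.15) lay above and *IER3* (0.887, 0.848 to 0.929) below. With *miR-195*, *KLF6* (1.8, 1.74 to 1.87) and *JUN* (1.48, 1.32 to 1.65) lay above such genes, and *MYC* (1.04) and *IER3* (1.05) slightly above. *EGR1* (0.823, 0.732 to 0.924) and *JUND* (0.876, 0.788 to 0.974) lay below. The part of base composition in the ratios was not tested.

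**Figure D3:**
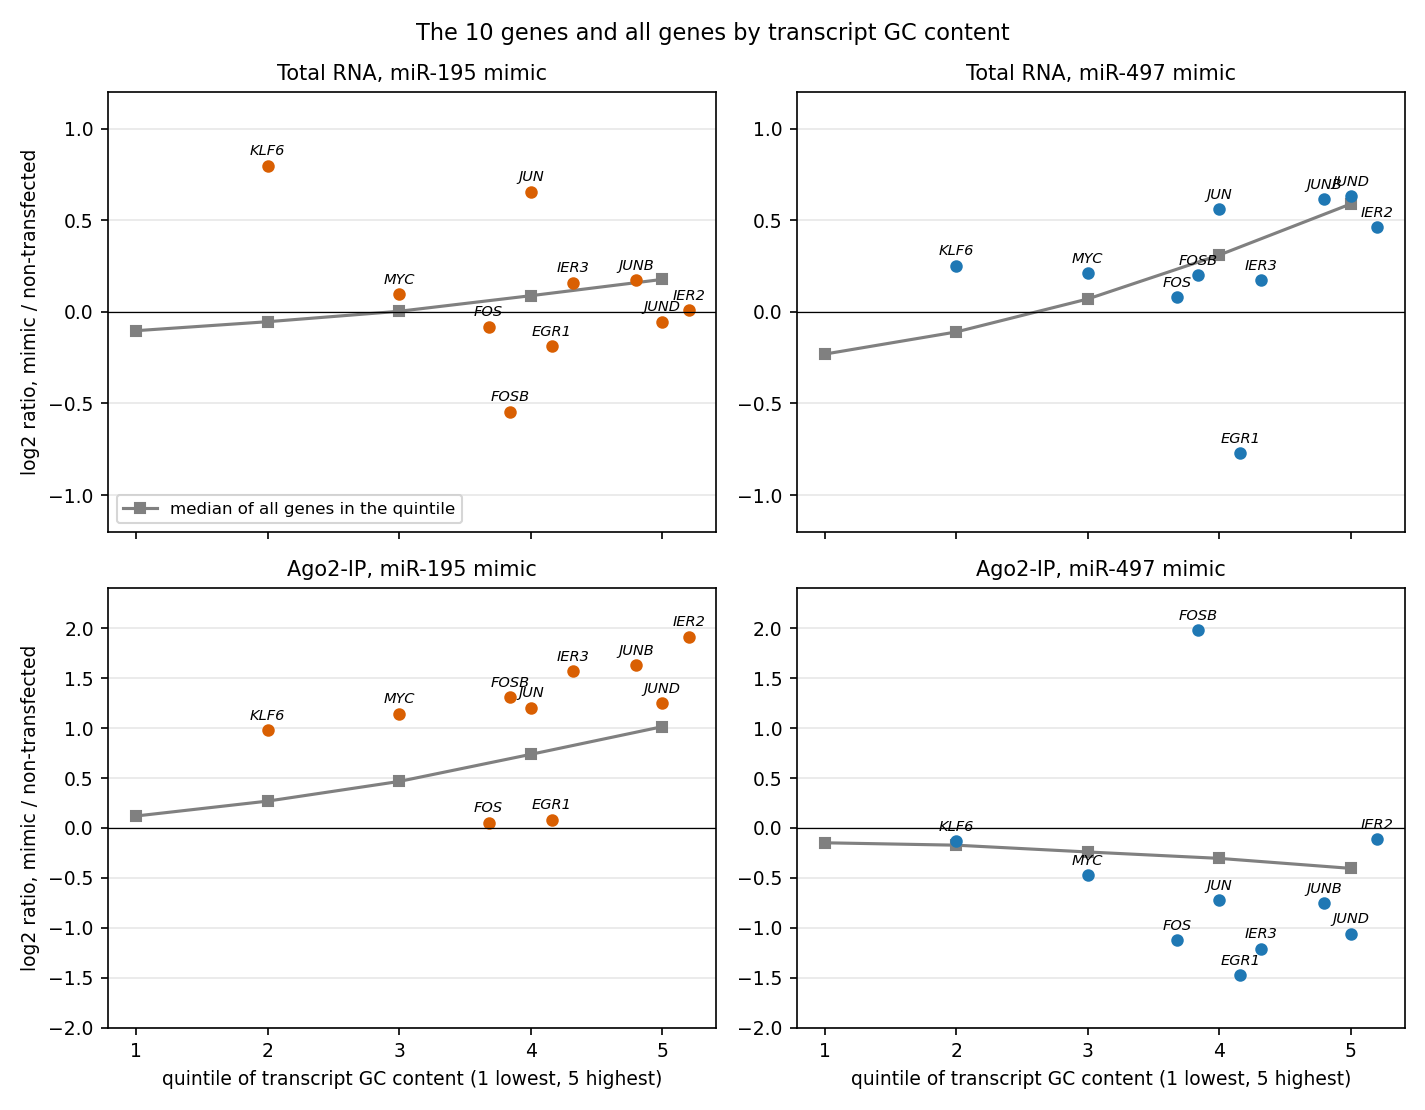
Log2 ratio against non-transfected cells of the 10 genes (circles) and median of all genes (squares) by quintile of transcript GC content, in total RNA (top) and Ago2-IP (bottom), with *miR-195* (left) and *miR-497* (right). Within a quintile, circles are spread sideways for legibility. With *miR-497* in total RNA the squares go from a ratio of 0.852 to 1.5, and *JUNB* and *JUND* lie close to the highest square. *EGR1* lies far under the square of its quintile.

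The second question was whether the level of these mRNAs in Ago2-IP differed with a mimic. In Ago2-IP all genes shifted with the mimics, the median ratio being 1.39 over 14291 genes with *miR-195* and 0.855 over 13866 genes with *miR-497*, so the 10 genes are also placed against these medians. Scaling a library by a constant does not change a gene's place against them. With *miR-195* the median ratio of the 10 genes was 2.34 (range 1.04 to 3.77), and 7 of the 10 (*FOSB*, on 2 and 4 reads, among them) were at least 2-fold higher than in non-transfected cells, as were 23.7% of all genes. None was 2-fold lower, as were 2.58% of all genes. With *miR-497* the median ratio of the 10 genes was 0.599 (range 0.361 to 3.95), 4 were at least 2-fold lower, as were 6.27% of all genes, and 1 (*FOSB*, on 2 and 5 reads) was at least 2-fold higher, as were 3.48%. The intervals of 7 genes lay above the all-gene median with *miR-195*, as did those of 24% of all genes with inferred reads, and the intervals of 4 lay below it with *miR-497*, as did 11.6%. With each library scaled by its median or upper quartile RPKM, 3 of the 10 genes were 2-fold higher with *miR-195*, beside 9.05% and 10% of all genes under these scalings. With *miR-497*, 1 was then 2-fold lower, beside 3.74% and 3.87%.

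Both early response genes were higher in Ago2-IP with *miR-195*, and *IER2* had the highest ratio of the 10 genes. *IER3* stood at 38.48 RPKM in Ago2-IP of non-transfected cells, 114.2 after *miR-195* and 16.65 after *miR-497*, from 803, 1929 and 220 reads. *IER2* stood at 1.191, 4.487 and 1.101 RPKM, from 41, 125 and 24 reads. The *miR-195* library was thus the highest for both genes, while with *miR-497* *IER3* was at its lowest and *IER2* was within counting error of non-transfected cells. The ratios with *miR-195* were 2.97 (2.73 to 3.22) for *IER3* and 3.77 (2.65 to 5.36) for *IER2*, above those of 91.8% and 95.7% of genes. With *miR-497* they were 0.433 (0.373 to 0.502) and 0.925 (0.559 to 1.53). *IER3* with its 6 ATTTA and no site, and *IER2* with its site and no ATTTA, were the genes with the most and the least of that word per kb. Over all genes the median *miR-195* ratio in Ago2-IP was 1.41 for genes with the site and 1.41 for genes without, and 1.75 for genes with no ATTTA against 1.21 for genes with 5 or more.

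*MYC* and the zinc finger factors differed among themselves. *MYC* stood at 12.86 RPKM in Ago2-IP of non-transfected cells, 28.43 after *miR-195* and 9.283 after *miR-497*, from 512, 916 and 234 reads. Its ratios were 2.21 (1.98 to 2.46) and 0.722 (0.619 to 0.843). *KLF6* stood at 13.94, 27.43 and 12.72 RPKM, ratios of 1.97 (1.82 to 2.12) and 0.913 (0.827 to 1.01). As deposited, its ratio with *miR-195* in Ago2-IP was close to the 1.74 in total RNA. With median scaling it was 1.38 in Ago2-IP and 1.75 in total RNA. *EGR1* stood at 3.069, 3.255 and 1.107 RPKM, so with *miR-195*, where most genes were higher, it was within counting error of non-transfected cells (1.06, 0.845 to 1.33), and it was lowest of the 10 with *miR-497* (0.361, 0.252 to 0.516). A lower ratio was found in 2.4% of genes.

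All 3 genes of the JUN family were at least 2-fold higher in Ago2-IP with *miR-195*, though *JUN* and *JUND* were under 2-fold when libraries were scaled by their median. *JUN* stood at 1.305 RPKM in non-transfected cells, 3.006 after *miR-195* and 0.7909 after *miR-497*. *JUND* stood at 3.654, 8.679 and 1.757 RPKM and *JUNB* at 0.5235, 1.618 and 0.3101 RPKM. For all 3 genes the *miR-195* library was the highest and the *miR-497* library the lowest. The ratios with *miR-195* were 2.3 (1.73 to 3.06) for *JUN*, 2.38 (1.9 to 2.98) for *JUND* and 3.09 (1.73 to 5.52) for *JUNB*, with intervals that overlap. With *miR-497* they were 0.606 (0.392 to 0.937), 0.481 (0.329 to 0.702) and 0.592 (0.232 to 1.51), the last on 16 and 6 reads. *FOS* stood at 0.8536, 0.8848 and 0.3915 RPKM, from 31, 26 and 9 reads, ratios of 1.04 (0.616 to 1.75) and 0.459 (0.218 to 0.963). *FOSB* stood at 0.03148, 0.07781 and 0.1243 RPKM, from 2, 4 and 5 reads, and its ratios of 2.47 (0.453 to 13.5) and 3.95 (0.766 to 20.4) are not distinguishable from 1.

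**Figure D4:**
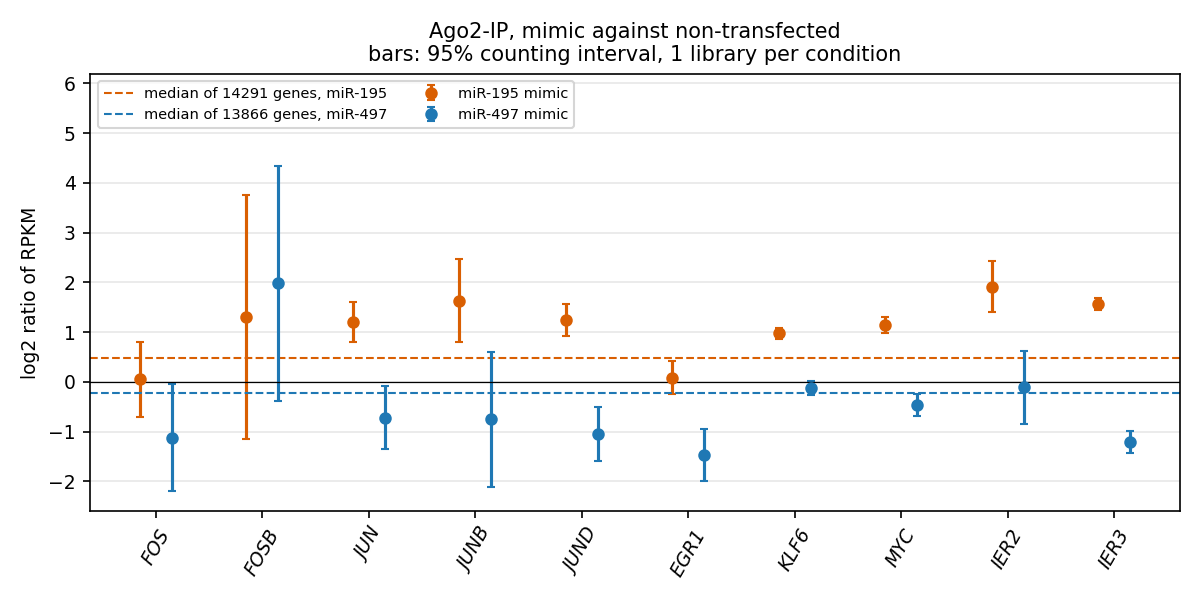
Log2 ratio of Ago2-IP RPKM with each mimic against non-transfected cells, with 95% counting intervals, 1 library per condition, and dashed lines at the median of all genes. With *miR-195*, 7 of the 10 genes are at least 2-fold higher, and *FOS* and *EGR1* lie near 0. The interval of *FOSB* is the widest.

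Directly compared, without the non-transfected library, Ago2-IP held more of 9 of the 10 genes with *miR-195* than with *miR-497*, all 9 by at least 2-fold, as did 35.3% of 13992 genes. None was 2-fold lower, as were 2.07% of genes. The median ratio of the 10 genes was 3.41 and that of all genes 1.59, and *IER3* was highest at 6.86 (5.97 to 7.89), above 98.6% of genes, followed by *JUNB* at 5.22 (2.21 to 12.3) and *JUND* at 4.94 (3.46 to 7.06). *FOSB* was the exception at 0.626 (0.168 to 2.33). With libraries scaled by their median, 5 of the 10 genes (the JUN family, *IER2* and *IER3*) were still at least 2-fold higher, beside 10.1% of all genes, and *IER3* stood at 3.99. *FOS*, *KLF6*, *EGR1* and *MYC* were then under 2-fold, at 1.32, 1.25, 1.71 and 1.78, and *FOSB*, on 4 and 5 reads, was 2-fold lower, beside 12.1%. Upper quartile scaling gave 5 and 1 as well, beside 11.8% and 10.5%. The all-gene median of this Ago2-IP ratio rose from 1.18 in the lowest quintile of GC content to 2.71 in the highest. Against genes of the same GC and length quintiles, the intervals of *JUNB* (1.87, 0.791 to 4.4), *IER2* (1.46, 0.942 to 2.26), *FOS* and *FOSB* included the median. Those of the other 6 genes lay above it, from 1.47 (1.02 to 2.11) for *EGR1* to 2.92 (2.54 to 3.36) for *IER3*. In total RNA the same comparison gave a median of 0.909 for the 10 genes and 0.951 over 15042 genes, of which 3.12% were 2-fold higher and 3.64% 2-fold lower, and none of the 10 genes was either.

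The Ago2-IP ratios also followed GC content. With *miR-195* the median ratio was 1.09 in the lowest quintile and 2.02 in the highest, and with *miR-497* 0.903 in the lowest and 0.756 in the highest. Against genes of the same GC and length quintiles, *IER2* was 1.86 times their median with *miR-195* (1.31 to 2.65), *KLF6* 1.65 times (1.53 to 1.78), *MYC* 1.62 times (1.45 to 1.8), *IER3* 1.6 times (1.47 to 1.74) and *JUN* 1.45 times (1.09 to 1.92). *EGR1* was 0.667 times (0.532 to 0.837). The intervals of *JUNB*, *JUND*, *FOS* and *FOSB* included the median of such genes, so the high ratios of *JUNB* and *JUND* in Ago2-IP did not differ from those of other GC-rich genes beyond counting error. With *miR-497*, *EGR1* (0.448, 0.314 to 0.641), *IER3* (0.548, 0.472 to 0.636) and *JUND* (0.636, 0.436 to 0.929) lay below such genes and none lay above.

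The 2 kinds of library can also be compared within a condition, as Ago2-IP RPKM divided by total RNA RPKM, a quotient of separately scaled libraries and not the share of an mRNA that is bound. In non-transfected cells its median was 0.241 over the 10 genes and 0.326 over all genes. It was highest for *FOS* at 0.616 (0.405 to 0.936) and *EGR1* at 0.428 (0.359 to 0.51) and lowest for *IER2* at 0.132 (0.096 to 0.182) and *MYC* at 0.171 (0.156 to 0.188). With *miR-195* the median was 0.558 over the 10 genes and 0.469 over all genes, and *IER3* reached 0.985 (0.933 to 1.04), from 0.371 (0.343 to 0.4) in non-transfected cells. With *miR-497* the medians were 0.123 and 0.26, and *JUND* (0.0817), *JUNB* (0.0851), *JUN* (0.0878) and *IER2* (0.0886) stood close together at the bottom. These quotients move with the scaling of the libraries. With median scaling, 4 of the 10 genes in non-transfected cells, 7 after *miR-195* and 4 after *miR-497* crossed from under 1 to above it, and *IER3* after *miR-195* stood at 2.13 (2.63 with upper quartile scaling). With *miR-497* the all-gene median quotient was 0.354 in the lowest GC quintile and 0.138 in the highest. Against genes of like GC and length, *JUNB* (0.717, 0.318 to 1.61) and *IER2* (0.747, 0.498 to 1.12) then included the median. *JUN* (0.491, 0.337 to 0.715) and *JUND* (0.688, 0.492 to 0.963) lay below it. So did *KLF6* (0.839, 0.773 to 0.911) and *MYC*, which lay farthest below (0.368, 0.323 to 0.419). *EGR1* (1.47, 1.05 to 2.06), *IER3* (1.32, 1.16 to 1.52) and, on few reads, *FOSB* (2.71, 1.03 to 7.14) lay above.

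**Figure D5:**
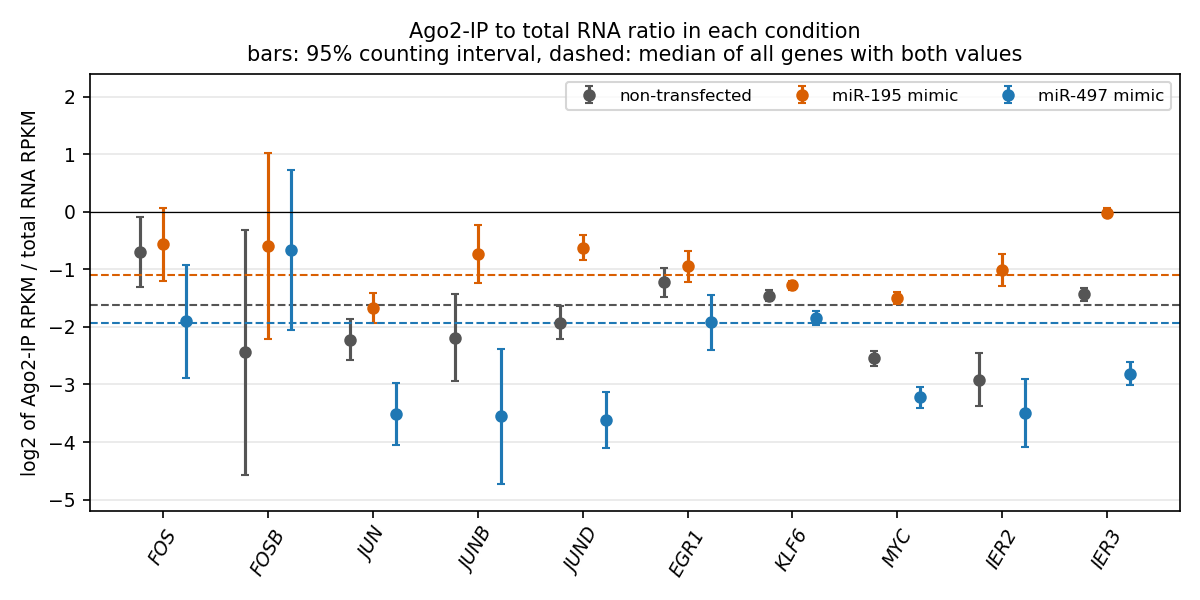
Log2 of Ago2-IP RPKM divided by total RNA RPKM for the 10 genes in each condition, with 95% counting intervals, 1 library of each kind per condition, and dashed lines at the median of all genes in the condition's colour. *IER3* with *miR-195* lies near 0, a ratio of 0.985, and *JUN*, *JUNB*, *JUND* and *IER2* with *miR-497* lie at ratios from 0.0817 to 0.0886.

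The study ranked candidate targets by a fold enrichment score, the Ago2-IP to total RNA ratio with a mimic divided by that in non-transfected cells. Its final candidates also needed a target sequence in the 3′UTR and a decrease of more than 2-fold on expression arrays. A score given here therefore does not make a gene a candidate of the study. With *miR-195* the score of the 10 genes had a median of 2.26 (range 1.1 to 3.75), beside 1.38 over 13749 genes, and 6 of the 10 were at least 2, as were 20.4% of all genes. None was at most 0.5, as were 3.7%. *FOSB* scored 3.61 (0.568 to 22.9) on few reads. *IER2* scored 3.75 (2.58 to 5.45), above 95.8% of genes, followed among genes with more than 10 reads in each of the 4 libraries of this score by *JUNB* at 2.74 (1.46 to 5.16), *IER3* at 2.66 (2.42 to 2.92), *JUND* at 2.46 (1.92 to 3.16) and *MYC* at 2.07 (1.85 to 2.32). *KLF6*, which was higher in both fractions, scored 1.13 (1.04 to 1.23), below the all-gene median. With *miR-497* the median score of the 10 genes was 0.517 beside 0.824 over 13430 genes, 5 of the 10 were at most 0.5, as were 16.3% of all genes, and 1 (*FOSB*, 3.44, 0.592 to 20) was at least 2, as were 3.1%. *JUND* scored lowest at 0.31 (0.21 to 0.458). From the lowest to the highest quintile of GC content, the all-gene median score went from 1.15 to 1.77 with *miR-195*. With *miR-497* it went from 1.06 to 0.509. Of the 5 low genes, *FOS* (0.672, 0.301 to 1.5) and *JUNB* (0.772, 0.294 to 2.03) included the median of genes of like GC and length. *JUN* (0.616), *JUND* (0.619) and *IER3* (0.615) lay below it. With *miR-195*, *JUNB* (1.52, 0.808 to 2.86) also included it. *IER2*, the gene with the site, scored 0.671 (0.4 to 1.12) with *miR-497*. Among the 5 genes with the highest *miR-195* scores on more than 10 reads in each of these libraries, *IER2* alone has TGCTGCT in its 3′UTR. Since 1 of the 10 genes holds the site, at least 4 of any 5 lack it, so this count cannot relate the score to the site. The median score over all genes was 1.5 with the site and 1.37 without for *miR-195*, and 0.853 and 0.806 for *miR-497*.

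Other genes of the same response, from lists chosen with earlier results of these data known, were described by counts. The genes named for a count, other than the most abundant of each list and those past 2-fold in total RNA at 1 RPKM or more, were chosen after their values were seen. Of 10 other AP-1 and ATF3 genes, none was 2-fold higher or lower in total RNA under *miR-195*, where 5.81% and 3.2% of all genes were. Under *miR-497*, *BATF3* was higher (0.04122 RPKM without transfection, 0.09875 with the mimic) and *BATF* lower (0.08602 and 0.03435), both near the lower limit of the data. In Ago2-IP, 5 of the 8 with values were at least 2-fold higher with *miR-195* (*FOSL1*, *FOSL2*, *ATF3*, *MAFF* and *MAFK*), beside 23.7% of all genes, and 4 of 8 at least 2-fold lower with *miR-497* (*FOSL1*, *JDP2*, *BATF2* and *MAFF*), beside 6.27%. *FOSL1*, a FOS relative, stood at 4.56 RPKM in Ago2-IP of non-transfected cells, 13.21 after *miR-195* and 2.026 after *miR-497*, and at 5.599, 5.353 and 6.524 in total RNA. *MAFG*, a small MAF protein gene and the most abundant of the list, stood at 12.71, 12.05 and 14.18 RPKM in total RNA, with 5.329, 8.135 and 3.49 RPKM in Ago2-IP. Of 23 other immediate early transcription factors, 21 had values in total RNA and 1 was 2-fold higher with each mimic and both stood under 1 RPKM. These were *KLF2* under *miR-195* (0.2207 RPKM without transfection, 0.868 with the mimic) and *EGR4* under *miR-497* (0.06815 and 0.1497). In Ago2-IP 5 of 19 were higher with *miR-195* (*KLF5*, *IER5L*, *ID3*, *CEBPB* and *CEBPD*), a share near the 23.7% of all genes, while 5 of 19 were lower with *miR-497* (*KLF4*, *KLF10*, *KLF11*, *ID2* and *CEBPB*), beside 6.27%. *ID1*, an inhibitor of differentiation factors and the most abundant of these, stood at 91.35, 62.78 and 99.65 RPKM in total RNA.

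Some immediate early effector genes outside the 10 passed 2-fold in total RNA. Of 39 with values, 4 were 2-fold higher with *miR-195* and none lower, and none was either with *miR-497*. Of all genes, 5.81% were higher and 3.2% lower after *miR-195*, against 6.67% and 2.11% after *miR-497*. *CTGF* and *CYR61*, secreted matrix-associated proteins, and *THBS1*, a matrix glycoprotein, were among the 4, with *EDN1*, the precursor of a vasoconstrictor peptide, as the fourth at 0.6546 RPKM without transfection and 2.012 under *miR-195*. *CTGF* stood at 92.59 RPKM in non-transfected cells, 231.9 after *miR-195* and 135.5 after *miR-497*, a ratio of 2.5 (2.43 to 2.58) with *miR-195*. *CYR61* stood at 29.99, 69.98 and 35.9 RPKM and *THBS1* at 7.213, 16.96 and 10.05 RPKM, ratios of 2.33 (2.21 to 2.47) and 2.35 (2.19 to 2.53) with *miR-195*. None of the 3 has TGCTGCT in its 3′UTR. Against genes of the same GC and length quintiles, their ratios were 2.58, 2.41 and 2.43 times the median. *RHOB*, a small GTPase gene and the most abundant effector, stood at 130.8, 174.1 and 170.9 RPKM. In Ago2-IP, 14 of 37 effectors with values were at least 2-fold higher with *miR-195*, beside 23.7% of all genes. With *miR-497*, 4 of 37 were at least 2-fold lower and 1 was higher, beside 6.27% and 3.48%.

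Around *MYC* (chromosome 8, 128747680 to 128755197, plus strand), 12 of 13 genes of the MYC and MAX network had values, and 1 was 2-fold higher in total RNA with each mimic, beside the same 5.81% and 6.67% of all genes. This was *MXD4*, whose product pairs with MAX in place of MYC and represses transcription. It stood at 4.686 RPKM in total RNA of non-transfected cells, 14.1 after *miR-195* and 15.92 after *miR-497*, and at 1.196, 6.364 and 1.12 in Ago2-IP, and it holds 1 site. *MLX*, the most abundant of the network, stood at 30.03, 28.02 and 32.22 RPKM. In Ago2-IP, 4 of 12 network genes were at least 2-fold higher with *miR-195*, beside 23.7% of all genes. None of the 12 was 2-fold lower with *miR-497*, beside 6.27%. Of 18 regulators of immediate early transcription, 1 was 2-fold lower in total RNA with each mimic, beside 3.2% and 2.11% of all genes. This was *RPS6KA3*, a kinase of the ERK pathway with 3 sites in its 3′UTR. It stood at 142.5, 51.57 and 68.44 RPKM in total RNA, ratios of 0.362 (0.354 to 0.37) and 0.48 (0.471 to 0.49), while in Ago2-IP it stood at 35.48, 40.35 and 22.69 RPKM, so its score was 3.14 (3.0 to 3.29) after *miR-195* and 1.33 (1.26 to 1.41) after *miR-497*. Of 17 regulators with values in Ago2-IP, 3 were at least 2-fold higher with *miR-195* and none was 2-fold lower with *miR-497*, beside the same 23.7% and 6.27%. Of 15 genes for proteins that bind AU-rich elements, none was 2-fold higher or lower in total RNA with either mimic. *HNRNPD*, the most abundant, stood at 162, 134.3 and 138.1 RPKM. In Ago2-IP, 1 of the 15 (*KHSRP*) was 2-fold higher with *miR-195*, beside 23.7% of all genes. With *miR-497*, 1 of the 15 was 2-fold lower, a share near the 6.27% of all genes. This was *ZFP36*, which promotes the decay of AU-rich mRNAs, at 2.554 RPKM without transfection, 2.231 after *miR-195* and 0.8069 after *miR-497*.

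The genes whose pattern over the 6 libraries was nearest to that of the 10 were found by the root mean square difference of log2 RPKM, each gene centred on its own mean, among 8582 genes with at least 1 RPKM in every library. Of the 10 genes, 6 met this minimum, and their median pattern was the reference. The nearest were *BHLHE40* (0.081), *CTDNEP1* (0.081), *PPP1R15A* (0.086), *SQSTM1* (0.09) and *TRIB3* (0.093), of which *BHLHE40* and *PPP1R15A* are also among the listed immediate early genes. *BHLHE40*, a transcription factor gene, stood at 15, 15.7 and 15.6 RPKM in total RNA, with 4.07, 7.89 and 2.35 RPKM in Ago2-IP. *PPP1R15A*, a stress-response regulator of translation, stood at 20, 22.1 and 20.4 and at 5.39, 10.4 and 3.07. The nearest to *MYC* alone were *MRPS24* (0.061), *MYADM* (0.063), *UBQLN4* (0.065), *VPS26B* (0.065) and *MAPKAPK3* (0.068). Of the other 5 genes that met the minimum, *IER2* was nearest to *MYC* at 0.246 and *EGR1* farthest at 0.694. Their ranks by nearness to *MYC* were only 713 and 5606, so many genes outside the 10 lay nearer to *MYC* than any of these 5.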

How the data were processed

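Total RNA and Ago2-IP RNA of Hep G2 cells were measured in 6 libraries, 1 for each of 3 conditions and each kind of RNA. Single reads of 36 bases were aligned to hg19 by ELANDv2, and CASAVA 1.7 turned them into the RPKM that the authors deposited for each gene in each library. The gene annotation, the strand setting and the libraries that had poly-A selection are not given in the sources used here. Poly-A selection could change which RNAs a library holds, and RPKM depends on the transcript length used and on all reads mapped.

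The RPKM were used as deposited, without a pseudocount, for genes above 0 in every library of a comparison, and where a symbol had several lines (28 symbols) their mean was taken. With 1 library per condition no test was possible and none was made. Reads were inferred as the smallest whole numbers in the ratio of the RPKM values, each divided by the worth of 1 read in its library, within 0.02 of a whole number, and checked on simulated reads. A gene was called at 2-fold. Symbols were matched to GENCODE 44 on GRCh37 directly (18208) or through a unique older symbol (2231), and 1424 were not matched. GC content and length were those of the canonical transcript, in 5 quintiles each (25 bins). For *MYC* this length was 3721 bases, longer than the 2359 that its RPKM implied, and bins by the implied length were not tried.

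The 10 genes and the lists were chosen with earlier results of these data known. Named from each list were the most abundant gene in total RNA of non-transfected cells and, among genes with at least 1 RPKM in all total RNA libraries, up to 3 genes per mimic and direction at 2-fold. Alternatives were pseudocounts of 0.1 and 1, a minimum RPKM of 1, a 1.5-fold call, scaling of each library by its median or upper quartile, and duplicated lines kept apart. Centring within the bins, and a minimum of 20 reads, were chosen after seeing the data. Python 3.11.15, numpy 2.4.6, pandas 2.3.3, pysam 0.24.0, samtools 1.23.1 and matplotlib 3.10.9 were used.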

Additional observations from a re-analysis of the deposited data

Results flagged for a closer look

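With *miR-497*, the intervals of 3 genes lay on opposite sides of the all-gene median in total RNA and in Ago2-IP, 2 fractions measured in separate libraries. *JUND* was 1.46 times the all-gene median ratio in total RNA and 0.563 times it in Ago2-IP. *MYC* was 1.09 times it in total RNA and 0.845 times it in Ago2-IP. *IER3* was 1.06 times it in total RNA and 0.506 times it in Ago2-IP. The difference between the fractions was not tested, since each fraction has 1 library per condition. Against genes of similar GC content and length, the total RNA ratio of *JUND* was 1.03 (0.936 to 1.13) and that of *IER3* was 0.887 (0.848 to 0.929). The Ago2-IP ratio of *MYC* was 0.858 (0.735 to 1). On that scale none of the 3 genes had intervals on opposite sides, but the *MYC* interval only just reached the median. *MYC* was placed among genes by its canonical length of 3721 bases, not the 2359 that its RPKM implied.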

How the results depend on the processing

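No paired analysis was possible because each condition has 1 library of each kind, and for the same reason no library could be left out. Of 126 values under other settings, 89 stayed close to the value as reported, 35 moved and 2 changed direction. The medians below are log2 values over the 10 genes. Centring within GC and length bins turned the total RNA median with *miR-195* from 0.05 to -0.05 and the one with *miR-497* from 0.23 to -0.04, and moved the *miR-497* score from -0.95 to -0.38. The Ago2-IP median with *miR-195* was 1.23, and 0.86 with a pseudocount of 1, 0.71 with median scaling, 0.77 with upper quartile scaling and 0.61 centred. The *miR-195* score was 1.18, and 0.44, 0.65, 0.66 and 0.52 in the same order. The Ago2-IP median with *miR-497* was -0.74, and -0.39, -0.47, -0.50 and -0.38 in that order. These were counted as close, since the counting half-width of this median was 0.40, though they lie nearer to no change. The Ago2-IP to total RNA ratio of non-transfected cells was -2.06, and -1.67 with a pseudocount of 0.1, -1.40 with 1, -0.42 and -0.13 with the 2 scalings and -0.05 centred. At 1.5-fold, total RNA had 2 genes higher with *miR-195* and 2 higher and 1 lower with *miR-497*, beside 13.3%, 19.1% and 5.53% of all genes. The 7 genes 2-fold higher in Ago2-IP with *miR-195* became 4 with a pseudocount of 1 and 3 with either scaling, and the 6 with a score of at least 2 became 3, 2 and 2, beside 7.98% and 8.08% of all genes under the scalings. The 4 lower in Ago2-IP with *miR-497* became 1 under each of these 3 settings. The 5 with a low *miR-497* score became 2 with a pseudocount of 1, median scaling, or a minimum RPKM of 1, which 6 genes met. Under median scaling 8.39% of all genes scored as low. Upper quartile scaling left 4, beside 10.3% of all genes. *FOSB*, the 1 gene higher with *miR-497* in Ago2-IP and by score, was lost (0 genes) with either pseudocount or the minimum RPKM. Median scaling moved the all-gene median in Ago2-IP from 0.48 to -0.04 (*miR-195*) and from -0.23 to 0.04 (*miR-497*). With either scaling, *FOS* and *EGR1* fell under a ratio of 1 with *miR-195* in Ago2-IP, and *KLF6* and *IER2* came above 1 with *miR-497*. Apart from the construction of each setting, the cause was not tested. Depth limits *FOSB*, with 2 to 5 reads per Ago2-IP library, and *FOS* and *JUNB*, with 9 and 6 in the shallowest.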
